A study of Mus musculus with 22 samples.

Results

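The potassium channel genes of the mouse hippocampus were followed across cell classes, genotypes and ages. They were taken as every row of the count table whose symbol begins with Kcn, continues with letters and then a number, leaving out the non-coding Kcnq1ot1. This gave 67 of the 13685 genes in the table, in 15 families of pore-forming and accessory subunits. Drop-seq, which catches single cells in droplets with barcoded beads and counts the 3' ends of their transcripts, was run on the hippocampus of 22 mice of a mixed Fvb/B6 strain. The 6 groups were 5 old wild-type mice (WT, 32 to 40 weeks), 4 old rTg4510 (32 to 38 weeks), 3 old P301L (41 to 48 weeks), 3 old rTta (33 weeks), 4 young WT (5 to 6 weeks) and 3 young rTg4510 mice (4 to 5 weeks). The WT mice were littermates that carried neither transgene. The rTg4510 line is known to express mutant (P301L) human tau from a tetracycline-responsive transgene. A second transgene supplies the tetracycline activator from the Camk2a promoter, which is active in forebrain excitatory neurons. The names of the P301L and rTta groups point to mice with 1 transgene each, the tau responder or the activator, but the labels give no more than these names. The series text gives the young mice as 2 to 4 weeks old, below the ages in the labels. Each sample is labelled as a separate animal, so n counts animals throughout.

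Potassium channels let potassium leave or enter the cell and so set the resting potential, the length of each action potential and the firing rate of neurons. The voltage-gated Kv families open on depolarisation, the BK, SK and Slack families on calcium or sodium, the inward rectifiers and 2-pore channels carry current near rest, and KChIP, Kv beta and Kcne proteins are accessory subunits. In the hippocampus, Kv3 channels are known for fast-spiking interneurons, and Kir4.1 (Kcnj10) for the uptake of potassium by astrocytes.

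The animals held between 780831 and 6039656 counts each. Of the barcodes, 27198 with at least 300 counts were kept, and their median count was 638 to 2021 per animal. Clustering without the potassium channel genes gave 26 clusters, and 26458 cells were named from marker genes. They included 9212 excitatory neurons (2459 dentate granule and 1084 CA pyramidal neurons among them), 1307 interneurons, 3905 oligodendrocytes, 1851 oligodendrocyte precursors, 3260 astrocytes, 2840 microglia, 1970 endothelial cells and 745 mural cells. Of 30244 distinct barcode sequences, 219 occurred in more than 1 animal, which touched 475 cells. Mapt, the gene of tau, read over all cells, stood at 917 to 1094 CPM (a gene's share of all counts of a sample, on one common scale) in young rTg4510 mice and 367 to 540 in young WT mice. In old mice it stood at 431 to 1174 CPM in rTg4510 and 337 to 632 in WT, so that the ranges overlapped there. The P301L and rTta mice were at 488 to 603 and 460 to 582 CPM. The rows at 0 split the table by animal: 270 genes were at 0 in all P301L and rTta mice, and 801 genes were at 0 in the other 16. No label says why. Setting P301L or rTta mice against WT or rTg4510 mice also sets one side of this split against the other, and the effects cannot be told apart. The P301L mice, at 41 to 48 weeks, were also older than every other old mouse. Age and genotype thus cannot be told apart in any P301L comparison. Of the 67 genes, 62 were counted on both sides, Kcnk4 and Kcnmb2 were at 0 in the P301L and rTta mice, and Kcna5, Kcng4 and Kcnh5 in the other 16.

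Levels were read as CPM of counts summed per animal within a class, and are compared within a gene across classes, since counts of 3' ends do not rank one gene against another. Of the 67 genes, 27 had their highest mean in excitatory neurons and 11 in interneurons. A further 7 were highest in astrocytes, 6 in mural cells, 6 in oligodendrocyte precursors, 3 in oligodendrocytes, 3 in microglia, 2 in choroid plexus cells and 2 in fibroblasts. No test was made of one class against another, and no share over all genes was taken for these counts. Immature neurons and perivascular macrophages were left out, since too few animals had at least 20 such cells. Some genes were near 0 or nearly level between classes. Kcng4 led in astrocytes at 2.60 CPM, and Kcnh5 stood at 2.24 CPM in excitatory neurons against 2.06 in interneurons. The highest class was the same for 66 of 67 genes with at least 500 counts per barcode, and for 63 without the 5219 cells whose marker counts of another class exceeded those of their own. Genes at least 2-fold above the next class and at 30 CPM or more numbered 9 in excitatory neurons, 6 in interneurons, 4 in mural cells, 3 in oligodendrocyte precursors, 2 in astrocytes, 2 in oligodendrocytes and 1 in microglia.

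**Figure D1:**
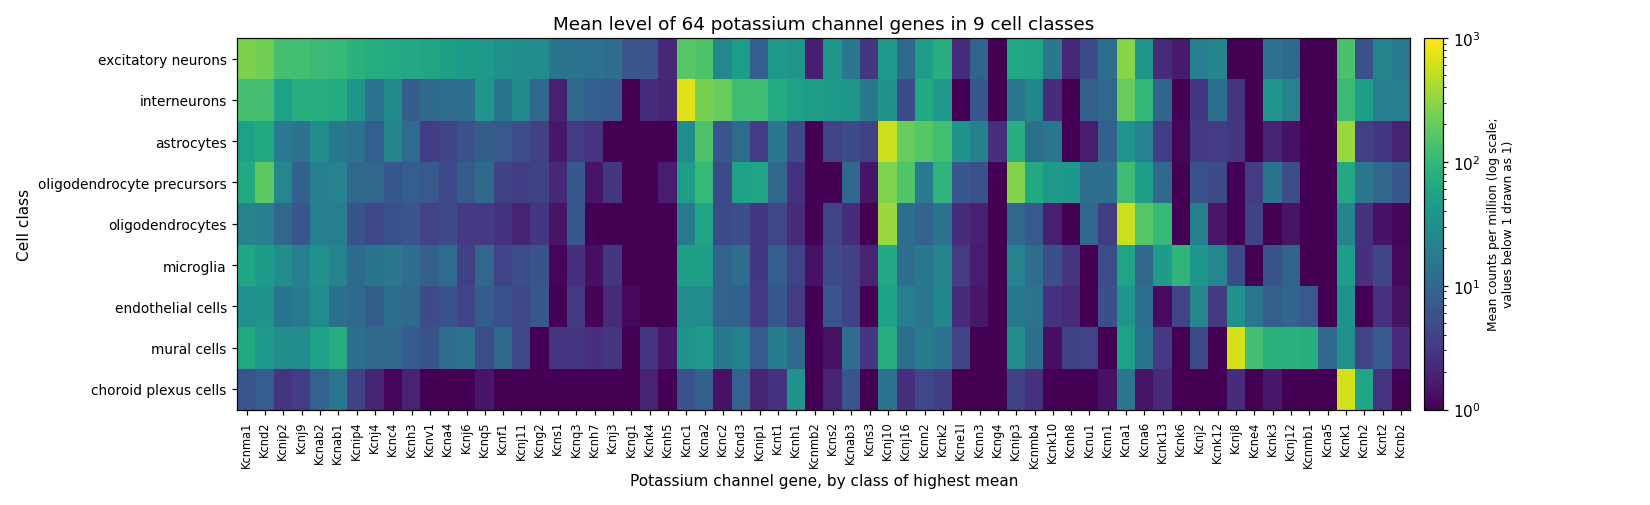
Mean level in CPM (log colour scale, values below 1 drawn as 1) of potassium channel genes in columns, ordered by their class of highest mean, in 9 marker-named cell classes in rows. Among glial and vascular rows, Kcnj8 stands out in mural cells, Kcnk6 in microglia and Kcnj10 in astrocytes and the oligodendrocyte lineage.

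In excitatory neurons, the genes at 30 CPM or more that stood furthest above the next class were Kcnv1, Kcnh3, Kcna4 and Kcnj4. Kcnv1, a silent subunit that forms no channel alone and modifies Kv2 channels, had a mean of 60.3 CPM ± 20.4 (SD, n = 22), with a lowest, median and highest animal of 34.7, 58.5 and 121. This was 5.55-fold above interneurons, and higher in 19 of the 19 animals with both classes. Kcna4, the Kv1.4 subunit of fast-inactivating currents, stood at 50.2 CPM ± 11.8, which was 4.22-fold above interneurons and higher in 19 of 19 animals. Kcnh3, an elk-type channel of forebrain neurons, had 65.0 CPM ± 20.0, and Kcnj4, the strong inward rectifier Kir2.3, had 71.3 CPM ± 19.1; fibroblasts were next for both genes, at 14.9 and 19.1 CPM from 4 and 5 counts in 4 animals.

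The following genes, also highest in excitatory neurons, stood less far above the next class. Kcnma1, the pore subunit of the BK channel, stood at 258 CPM ± 45.8 in excitatory neurons, 1.96-fold above interneurons and higher in 19 of 19 animals. Kcnd2, the Kv4.2 subunit of dendritic A-type current, stood at 228 CPM ± 43.0, with oligodendrocyte precursors next at 178. Its partner Kcnip2, a calcium-binding KChIP subunit, stood at 128 CPM ± 27.3, which was 2.46-fold above interneurons. Kcnab2, a Kv beta subunit, stood at 111 CPM ± 34.8, which was 1.49-fold above interneurons.

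Interneurons carried the Kv3 genes Kcnc1 and Kcnc2, whose channels close fast enough for high firing rates. Kcnc1 stood at 740 CPM ± 224 (SD, n = 19; lowest 396, median 727, highest 1128) in interneurons and at 165 CPM in excitatory neurons, a 4.50-fold difference that was seen in 19 of 19 animals. Kcnc2 stood at 200 CPM ± 69.4, which was 8.07-fold above excitatory neurons and again higher in 19 of 19 animals. Kcnc4, of the same family, had the opposite order and was 2.52-fold higher in excitatory neurons. Kcnab3, a Kv beta subunit, was 2.51-fold above excitatory neurons, at 38.9 CPM ± 20.4, and higher in 16 of 19 animals. Kcnt1, the sodium-activated Slack channel, had 68.1 CPM ± 45.1. Kcnmb2, a BK beta subunit, had 46.8 CPM ± 31.4, a mean that includes the rTta mice and 1 P301L mouse, in which its row is at 0.

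Some potassium channel genes differed in level between dentate granule and CA pyramidal neurons. Among the 35 genes at 30 CPM or more in either class, over the 15 animals with at least 20 cells of both, 5 were at least 2-fold higher in CA pyramidal neurons and 3 in dentate granule neurons. The share of all genes past this cut was not taken, so these counts are no result about potassium channel genes as a set. Kcnq5 and Kcnc4 were picked for this comparison after their values were seen. Kcnq5, an M-current subunit, stood at 72.1 CPM ± 28.8 in CA pyramidal neurons and 4.59 ± 5.03 in dentate granule neurons, a 15.7-fold difference with no animal the other way. Kcnc2 was 13.3-fold higher in CA pyramidal neurons (51.5 against 3.88 CPM), and Kcnn2, an SK channel opened by calcium, 5.90-fold (96.0 against 16.3 CPM). Each was lower in dentate granule neurons in 15 of 15 animals. Kcnt1 and Kcnf1, a silent subunit, were 2.42-fold and 2.11-fold higher in CA pyramidal neurons, in 14 and 11 of 15 animals.

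In the other direction, Kcnk1, the 2-pore channel TWIK1, stood at 243 CPM in dentate granule and 81.1 in CA pyramidal neurons of the same animals, which put dentate granule neurons 3.0-fold higher. Kcnc4, the Kv3.4 subunit, stood at 81.7 against 27.0 CPM and Kcnj4 at 98.9 against 36.6 CPM. All 3 were higher in dentate granule neurons in 15 of 15 animals.

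**Figure D2:**
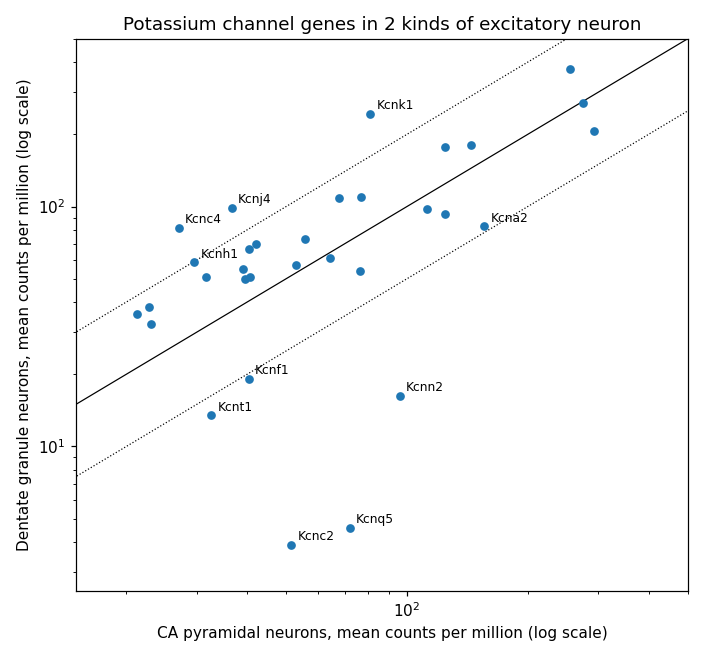
Mean level of potassium channel genes at 30 CPM or more in either class in dentate granule neurons against CA pyramidal neurons, over the 15 animals with both classes, on log axes. The solid line marks equal levels and the dotted lines a 2-fold difference; Kcnq5, Kcnc2 and Kcnn2 lie far to the CA pyramidal side, and Kcnk1, Kcnc4 and Kcnj4 to the dentate side.

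Astrocytes were the highest class for Kcnj10, at 597 CPM ± 241 (SD, n = 22; lowest 227, median 631, highest 1036). Oligodendrocytes followed at 356 CPM ± 98.2, below astrocytes in 22 of 22 animals, and oligodendrocyte precursors at 264 ± 78.4. Kcnj16, which encodes the Kir5.1 subunit that pairs with Kir4.1, was also highest in astrocytes, at 202 CPM ± 68.9, with oligodendrocyte precursors next at 155 ± 74.8. Kcnn2 stood at 167 CPM ± 45.3 in astrocytes, 2.5-fold above interneurons, and Kcne1l, a Kcne accessory subunit, at 35.5 ± 30.6, 5.51-fold above oligodendrocyte precursors. Kcnk2, the mechanosensitive channel TREK1, stood at 125 CPM ± 46.2. Kcnk1 stood at 349 CPM ± 89.6 in astrocytes, and at 629 ± 34.0 in the choroid plexus cells of the 5 animals that had at least 20 of them.

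Kcnj10 lies on chromosome 1 beside Kcnj9, which encodes the G-protein-gated rectifier Kir3.3, and the 2 genes are transcribed away from each other. On the mouse build GRCm38 (mm10) Kcnj9 spans chr1:172320508-172329322 on the minus strand and Kcnj10 chr1:172341210-172374085 on the plus strand, with 11888 bases between them. Their levels were unlike: Kcnj9 stood at 124 CPM ± 29.0 in excitatory neurons and 14.0 ± 13.4 in astrocytes, while Kcnj10 stood at 40.5 ± 25.2 in excitatory neurons. The 250 bases before each start are shown because these neighbours, 1 neuronal and 1 glial, start back to back. They come from RefSeq (GRCm38.p6, chr1:172329323-172329572 on the minus strand and chr1:172340960-172341209 on the plus strand, 5′ to 3′). Capitals mark matches on either strand to any of 5 motifs. The first is the GC box, spelled GGGCGG. The core bound by the factor PU.1 is spelled GAGGAA, and the motif of nuclear factor I is spelled TTGGC. The TATA box is searched with the letters TATAAA, and the cyclic AMP element with the letters TGACGTCA.
Kcnj9: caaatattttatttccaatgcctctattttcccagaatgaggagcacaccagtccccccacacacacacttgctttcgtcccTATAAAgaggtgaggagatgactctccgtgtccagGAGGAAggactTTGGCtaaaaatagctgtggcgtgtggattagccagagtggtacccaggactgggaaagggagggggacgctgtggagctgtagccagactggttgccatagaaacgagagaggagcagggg
Kcnj10: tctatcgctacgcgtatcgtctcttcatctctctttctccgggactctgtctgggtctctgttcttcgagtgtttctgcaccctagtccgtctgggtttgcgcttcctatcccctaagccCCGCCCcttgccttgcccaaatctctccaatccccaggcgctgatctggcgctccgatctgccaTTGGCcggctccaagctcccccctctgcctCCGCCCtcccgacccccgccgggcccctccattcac
The Kcnj9 window held 1 TATA box, 1 PU.1 core and 1 nuclear factor I motif, which occur in 12.4%, 23.3% and 41.5% of the 32817 mouse windows of that length, and its GC content was 52.0%. The Kcnj10 window held 2 GC boxes, found in 32.7% of windows, and 1 nuclear factor I motif, with a GC content of 62.0%. Neither held the cyclic AMP element, which occurs in 1.55%. Such matches describe the letters and not binding.

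Oligodendrocytes were highest for Kcna1, the Kv1.1 subunit known from axons beside the nodes of Ranvier, at 577 CPM ± 137 (SD, n = 22; lowest 392, median 538, highest 907). Excitatory neurons followed at 287 CPM ± 52.8, lower in 22 of 22 animals. Kcna6, which lies 62527 bases from Kcna1 on chromosome 6, was also highest in oligodendrocytes, at 162 CPM ± 73.0. Kcnk13, the 2-pore channel THIK1, stood at 102 CPM ± 25.5 in oligodendrocytes and 45.6 ± 17.7 in microglia, and oligodendrocytes were higher in 21 of 22 animals. Oligodendrocyte precursors were highest for Kcnh8, an elk-type channel, at 39.8 CPM ± 24.6, with mural cells next at 3.93 CPM from 3 counts. In the same class Kcnip3, a KChIP protein also known as calsenilin or DREAM, stood at 271 CPM ± 138 (lowest 49.2, median 236, highest 606), and Kcnk10, the 2-pore channel TREK2, at 42.4 ± 23.8.

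Among vascular and immune cells, mural cells (pericytes and smooth muscle) stood out. Kcnj8, the Kir6.1 pore of the vascular ATP-sensitive channel, stood at 639 CPM ± 366 (SD, n = 18; lowest 98.5, median 520.0, highest 1335) and at 36.6 in fibroblasts, the next class. Kcnmb1, the BK beta subunit of smooth muscle, stood at 77.7 CPM ± 40.6, 11.3-fold above endothelial cells and higher in 18 of 18 animals. Kcnmb1 (chr11:33962955-33973641) lies inside Kcnip1 (chr11:33629339-33993348) on the opposite strand, yet Kcnip1 stood at 7.13 CPM in mural cells and 116 CPM in interneurons, where Kcnmb1 had 2 counts in all. Kcnj12, the Kir2.2 rectifier, had 82.9 CPM ± 52.7 in mural cells, and Kcnk3, the acid-sensitive 2-pore channel TASK1, had 84.3 ± 53.2, with interneurons next for both. In microglia, Kcnk6, the 2-pore channel TWIK2, stood at 91.5 CPM ± 40.9 (lowest 16.3, median 89.5, highest 163). Fibroblasts were next at 4.22 CPM, from 1 count in 4 animals, so no fold is given.

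The groups were compared within each class with edgeR's quasi-likelihood test on counts summed per animal, with Benjamini-Hochberg adjustment over all genes of the class and a threshold of 0.05. Of the 67 genes, 57 passed the filter on low counts in some class, giving 124 pairs of gene and class. They comprised 50 genes in excitatory neurons, 29 in interneurons, 14 in astrocytes, 12 in oligodendrocyte precursors, 9 in microglia, 7 in oligodendrocytes, 2 in mural cells and 1 in endothelial cells. Over 10 comparisons, 5 pairs passed the threshold, all of them Kcnj10 or Kcnc1 and all in comparisons with the P301L or rTta mice.

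Old rTg4510 mice had 0 of 124 pairs called against old WT with edgeR, beside 0.504% of all tested gene and class pairs. There were 12 pairs, or 9.68%, at an unadjusted p under 0.05, beside 7.75% of all pairs. DESeq2 called 2, which were Kcnj10 in astrocytes and Kcnt1 in excitatory neurons. DESeq2 calls were collected for the potassium channel genes alone, so its counts here and below have no share of all pairs beside them. Young rTg4510 against young WT gave 0 of 124 called, beside 0.022% of all pairs, with 12 (9.68%, beside 6.66% of all pairs) at an unadjusted p under 0.05 and 0 by DESeq2. The test of whether the rTg4510 difference itself changed with age gave 0 of 124, beside 0.0196% of all pairs, with 13 (10.5%, beside 5.89%) at an unadjusted p under 0.05 and 0 by DESeq2. With age, old against young WT gave 0 of 124 by edgeR (0.575% of all pairs), 8 (6.45%, beside 7.81%) at an unadjusted p under 0.05 and 1 by DESeq2, which was Kcnj10 in excitatory neurons. Old against young rTg4510 gave 0 of 124 by edgeR (0.43% of all pairs), 12 (9.68%, beside 6.59%) at an unadjusted p under 0.05 and 0 by DESeq2.

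Among the old control genotypes, P301L against WT gave 1 of 95 pairs, or 1.05%, beside 1.16% of all pairs, and rTta against WT gave 1 of 124, or 0.806%, beside 0.695%. Old rTg4510 against rTta gave 2 of 124, or 1.61%, beside 0.758%, and against P301L 1 of 95, or 1.05%, beside 1.3%. P301L against rTta, which share the pattern of rows at 0, gave 0 of 95 by edgeR beside 0.204% of all pairs, with 15 (15.8%, beside 7.99%) at an unadjusted p under 0.05 and 0 by DESeq2. Several of these comparisons share their control animals. The share of potassium channel pairs called was thus between 0 and 1.61% in every comparison, against 0.0196% to 1.3% of all pairs.

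In astrocytes, Kcnj10 was higher in old rTg4510 than in old rTta mice. The old rTg4510 animals stood at 1019, 1036, 708 and 903 CPM, or 917 ± 151 (SD, n = 4), and the old rTta animals at 358, 380.5 and 227 CPM, or 322 ± 82.5 (SD, n = 3). Old WT animals stood at 655, 355, 369.8, 305 and 651 CPM, or 467 ± 171 (SD, n = 5), and P301L animals at 673, 949 and 322 CPM. All 4 old rTg4510 animals lay above every old WT and rTta animal, while the P301L animals spread over the whole range. Against rTta the difference was a log2 change of 1.57 ± 0.31 (SE), or 2.97-fold, with an edgeR adjusted p of 0.0031, and 0.674% of all astrocyte genes were called higher in this comparison. Without old rTta 3 the adjusted p was 0.057. Against old WT the log2 change was 1.03 ± 0.26 with an edgeR adjusted p of 0.0524, just outside the threshold, and 7 of 18 alternative settings put it inside, DESeq2 among them at 0.0451 and edgeR with a term for ranges of the animal numbers in the labels at 0.0257. Leaving out any single old WT or old rTg4510 animal kept it outside.

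In young mice Kcnj10 in astrocytes did not show this order. Young WT animals stood at 563, 739, 601 and 628 CPM and young rTg4510 animals at 701, 634 and 346, and the groups overlapped, with a log2 change of -0.15 ± 0.30 and an edgeR adjusted p of 0.958. The test of the change of the rTg4510 difference with age gave a log2 value of 1.18 ± 0.40 with an unadjusted p of 0.00497 and an adjusted p of 0.973, which did not pass. Among the other Kir4.1-related values, Kcnj16 in astrocytes had a log2 change of -0.21 ± 0.26 between old rTg4510 and old WT (edgeR adjusted p 0.913). In oligodendrocytes Kcnj10 had a log2 change of 0.24 ± 0.25 against old WT (adjusted p 0.971) and 0.63 ± 0.29 against rTta (adjusted p 0.46).

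A cluster of astrocytes with few counts, with a median of 567 per cell, made up 23.0% of astrocytes in old rTg4510, 28.3% in old WT and 40.4% in rTta mice. With the other astrocyte cluster alone, the log2 change of Kcnj10 was 1.56 against rTta (edgeR adjusted p 0.00111) and 1.00 against old WT (adjusted p 0.0384). The 10 astrocyte markers, all counted, summed to 28296 to 39561 CPM in the astrocytes of old rTg4510, 25314 to 34920 in old WT and 32788 to 36852 in rTta mice, so these ranges overlapped. The 10 microglia markers summed to 442 to 1637 CPM in astrocytes of old rTg4510, 279 to 602 in old WT and 211 to 571 in rTta mice, and the part of such RNA in the Kcnj10 values was not tested.

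**Figure D3:**
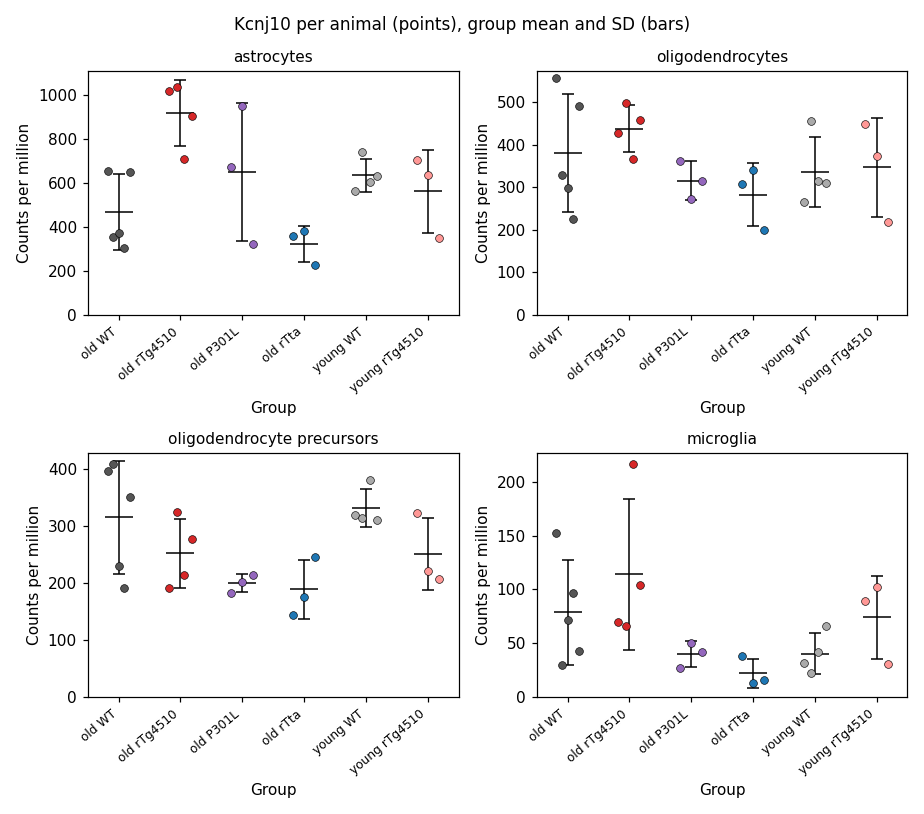
Kcnj10 in CPM per animal (points) in astrocytes, oligodendrocytes, oligodendrocyte precursors and microglia for the 6 groups, with the group mean and SD (bars). In astrocytes the old rTg4510 points sit at 708 to 1036, above all old WT and rTta points, and the microglia points sit at 13.0 to 217.

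In microglia, Kcnj10 was called in 2 comparisons at levels below those of astrocytes. Old rTg4510 animals stood at 70.0, 66.1, 217 and 104 CPM (135 counts in all), old WT at 153, 30.1, 72.0, 96.9 and 42.5 (47 counts), and rTta at 37.6, 13.0 and 15.7 (10 counts). Every rTg4510 animal lay above every rTta animal, while rTta and WT overlapped. Old rTg4510 exceeded rTta by a log2 change of 2.32 ± 0.52 (edgeR adjusted p 0.00634, beside 1.42% of microglia genes called higher). Kcnj10 was lower in rTta than in WT by a log2 change of -1.94 ± 0.56 (edgeR adjusted p 0.0454, beside 1.62% of microglia genes called lower), and 4 of 15 alternatives kept that call. Leaving out old WT 1, 3 or 4 or any rTta animal ended it, with adjusted p between 0.0556 and 0.233, and for rTg4510 against rTta leaving out rTta 2 or 3 gave 0.0987 and 0.0566. Neither call held within a single microglia cluster. In the cluster led by Ccl4, Ccl3 and Il1b, the edgeR adjusted p was 0.0717 for rTg4510 against rTta and 0.34 for rTta against WT. In the cluster led by P2ry12, Selplg and Cx3cr1, it was 0.0586 and 0.0822, and the log2 changes in both clusters kept their direction.

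Markers of other cells were also read in microglia. The 10 astrocyte markers, none at 0, summed in microglia to 1736 to 5063 CPM in old rTg4510, 1858 to 4930 in old WT, 848 to 1995 in P301L and 1243 to 1640 in rTta mice. Kcnj10 in the microglia of the P301L animals stood at 27.1, 50.6 and 41.8 CPM. The part of astrocyte RNA in the microglial Kcnj10 values was not tested. Among the 39 other potassium transport and channel partner genes in the table, the sodium pump subunit Atp1b2 was also called lower in rTta than in WT microglia, by a log2 change of -1.81 ± 0.52 (edgeR adjusted p 0.0454).

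Kcnc1 in microglia was lower in P301L than in old WT and old rTg4510 mice, on few counts. Old WT animals had 12, 2, 3, 15 and 2 counts, old rTg4510 animals 6, 17, 14 and 4, and P301L animals 1, 0 and 0. The groups did not overlap in CPM, the P301L animals reaching 9.03 and the others starting at 28.4 in WT and 16.1 in rTg4510. The rTta animals, which share the pattern of rows at 0 with P301L, stood at 18.8, 32.6 and 47.0 CPM. P301L against rTta did not pass (log2 -3.26 ± 1.14, edgeR adjusted p 0.273). The ratio of summed levels was 0.0349 (95% exact interval 0.00086 to 0.208) against WT and 0.0944 (0.00233 to 0.557) against rTg4510, intervals that cover counting error only. The edgeR adjusted p was 0.00624 against WT, where 5.39% of microglia genes were called lower in P301L, and 0.0434 for rTg4510 against P301L, where 4.29% were called higher. Without P301L 2 the first became 0.0775, and the second passed in 5 of 13 alternatives, failing without old rTg4510 3 or any P301L animal (0.0791 to 0.257). The filter on low counts took in all 6 groups, and young rTg4510 animals stood at 44.7, 115 and 211 CPM. With only P301L and WT mice in the fit, Kcnc1 did not pass that filter and was not tested.

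The 7 neuron markers, all counted, summed in microglia to 2865 to 8583 CPM in old WT, 1386 to 9210 in old rTg4510 and 685 to 1097 in P301L mice, and Kcnc1 itself stood at 740 CPM in interneurons. The part of neuronal RNA in the microglial Kcnc1 values was not tested. The partner genes Atp1b1 (a sodium pump subunit), Slc24a2 (a potassium-dependent sodium and calcium exchanger) and Dpp6 (a Kv4 partner), all known from neurons, were called lower in the same P301L to WT comparison, with log2 changes of -4.13, -3.44 and -2.69 (edgeR adjusted p 0.0123, 0.000873 and 0.0337).

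Kcnk6, for which microglia were the leading class, had the reverse order. Old WT animals stood at 62.2, 30.1, 72.0, 37.3 and 99.3 CPM, or 60.2 ± 27.9, P301L animals at 108, 163 and 146, or 139 ± 28.0, and rTta animals at 119, 149.7 and 141, or 137 ± 15.9. Every P301L and rTta animal lay above every old WT animal, but neither difference passed: the log2 change was 1.32 ± 0.43 for P301L (edgeR adjusted p 0.0509) and 1.26 ± 0.43 for rTta (adjusted p 0.0902). The old rTg4510 animals, at 51.1, 109, 16.3 and 57.5 CPM, overlapped WT.

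Within the excitatory neurons, 4 marker-defined groups were also fitted on their own. Kcnip4, a KChIP subunit that modifies Kv4 channels, was lower in dentate granule neurons of rTta than of old WT mice. The rTta animals stood at 50.1, 72.1 and 55.8 CPM and old WT animals at 79.9, 139.6, 237, 137 and 152, with no overlap, a log2 change of -1.20 ± 0.31, an edgeR adjusted p of 0.0409 and 0.529% of dentate genes called lower. The call was kept in 6 of 14 alternatives. It was lost with DESeq2 (0.0509), with only the groups compared and without cells of mixed markers. It was also lost without old WT 3 or 5 or any rTta animal (0.0972 to 0.189). Old rTg4510 animals stood at 51.9, 78.3, 105 and 85.9 CPM and young rTg4510 animals at 88.6, 51.8 and 59.4, against 142, 97.6, 129 and 136 in young WT, and neither rTg4510 comparison passed (adjusted p 0.234 and 0.336). Kcnip4 overlaps 4 other annotated genes (2 long non-coding RNAs and 2 pseudogenes), so its counts may include theirs. The 7 dentate markers in the table, none at 0, summed to 1118 to 1396 CPM in dentate granule neurons of rTta and 1204 to 1525 of old WT mice, and these ranges overlapped. Kcnj9 in the same neurons had a log2 change of -1.16 ± 0.32 between young rTg4510 and young WT mice (edgeR adjusted p 0.0811).

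**Figure D4:**
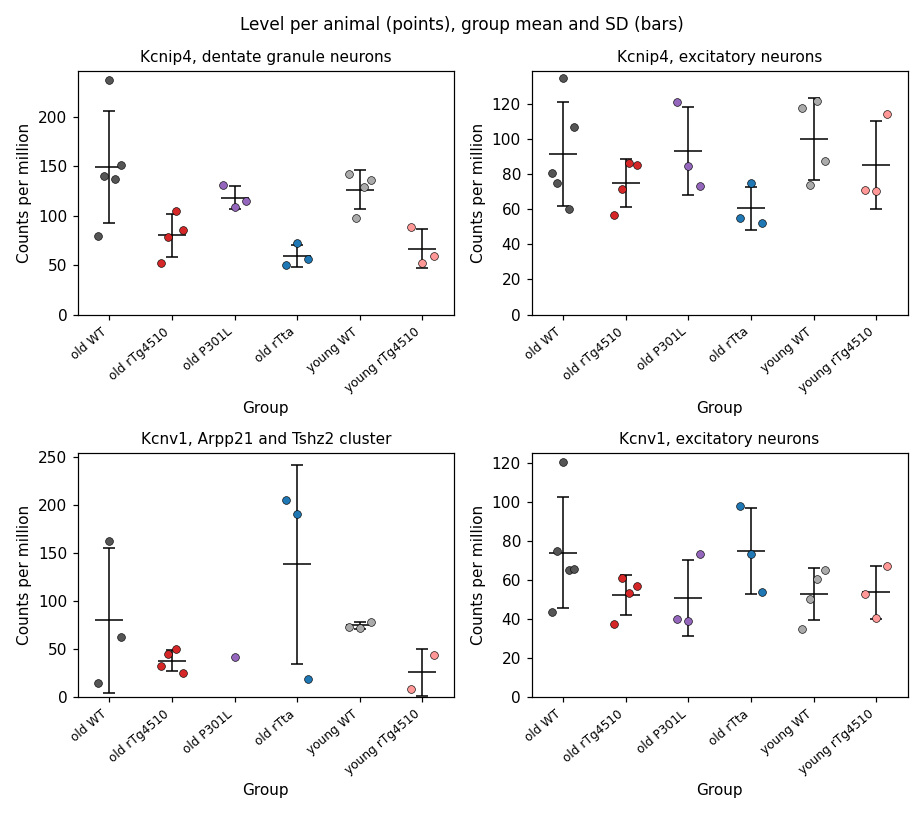
Kcnip4 in dentate granule neurons and all excitatory neurons, and Kcnv1 in the cluster led by Arpp21 and Tshz2 and all excitatory neurons, in CPM per animal (points) with the group mean and SD (bars). In dentate granule neurons the Kcnip4 points of rTta mice (50.1 to 72.1) lie below those of old WT, and in the cluster the Kcnv1 points of rTta mice spread from 18.3 to 206.

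In the excitatory cluster led by Arpp21 and Tshz2, Kcnv1 was lower in old rTg4510 than in rTta mice, at 32.4, 44.6, 49.4 and 24.6 against 206, 190.4 and 18.3 CPM. The groups overlapped, since rTta 3 lay below all rTg4510 animals on 1 count, and the log2 change was -1.97 ± 0.46 (edgeR adjusted p 0.0433, beside 0.161% of genes called lower). It was lost without any old rTg4510 animal or without rTta 1 or 2 (0.0674 to 0.197).

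In the excitatory neurons as 1 class, none of the 50 tested potassium channel genes was called by edgeR in the 10 comparisons. Old rTg4510 against WT had 28 of 50 genes with a log2 change above 0 and 22 below, 4 of them (8.0%, beside 8.31% of all genes of the class) at an unadjusted p under 0.05, with a median log2 change of 0.03 beside -0.02 over all genes tested. Kcnt1 had the lowest p there: old WT animals stood at 19.9, 31.7, 32.5, 23.3 and 10.7 CPM and old rTg4510 animals at 76.2, 59.7, 48.1 and 42.1, with no overlap, but the log2 change of 1.30 ± 0.30 had an edgeR adjusted p of 0.0737. It passed with DESeq2 (0.0285) and in edgeR with a term for ranges of animal numbers (0.0146), and in none of the other 16 alternatives. The P301L animals, at 73.6, 38.8 and 52.5 CPM, also lay above old WT, and rTta animals, at 67.7, 31.0 and 36.9, overlapped it.

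For rTta against WT, 36 of 50 genes had a log2 change above 0 and 14 below, 11 of them (22%, beside 8.91% of all genes of the class) at an unadjusted p under 0.05, with a median log2 change of 0.22 beside -0.02 over all genes tested. Kcnf1 led, at 59.1, 55.0 and 41.9 CPM in rTta against 26.8, 28.9, 32.5, 26.7 and 21.4 in old WT animals, without overlap and with a log2 change of 0.94 ± 0.23 (edgeR adjusted p 0.0599). Excitatory clusters of few counts made up 34.1% of the excitatory neurons of old rTg4510, 52.2% of old WT and 58.8% of rTta mice. Without those clusters, Kcnf1 passed against WT (log2 1.09 ± 0.25, edgeR adjusted p 0.0338, beside 0.22% of genes called higher). It then also passed for old rTg4510 against rTta (log2 -0.98 ± 0.24, adjusted p 0.0489, beside 0.231% called lower). Against WT, Kcnf1 passed in 3 of 15 alternatives, this one included. It failed with DESeq2, RLE scaling, no filter, only the groups compared, and any old WT or rTta animal left out. The highest adjusted p was 0.34, by edgeR without rTta 1.

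Kcnj8 in mural cells was tested over the animals with at least 20 such cells. Old WT animals stood at 327, 98.5 and 434 CPM, rTta animals at 1042, 1335 and 736 and P301L animals at 496, 919.7 and 1219. Old rTg4510 animals stood at 864, 495 and 545 CPM. All 3 groups lay above every old WT animal, but the log2 changes of 1.88 ± 0.51 for rTta, 1.67 ± 0.52 for P301L and 1.19 ± 0.53 for rTg4510 had edgeR adjusted p of 0.156, 0.158 and 0.398. In oligodendrocytes, Kcna1 stood at 894, 568, 513 and 907 CPM in old rTg4510 and 445, 563, 476, 459 and 392 in old WT animals, which overlapped, with a log2 change of 0.65 ± 0.20 (edgeR adjusted p 0.319).

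**Figure D5:**
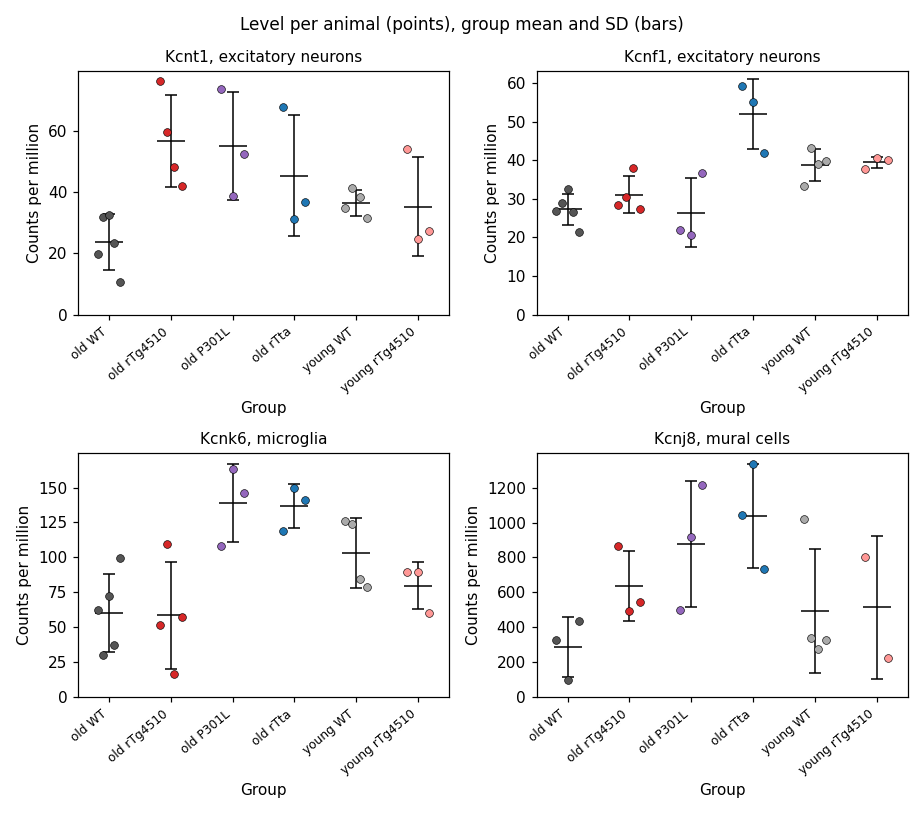
Kcnt1 and Kcnf1 in excitatory neurons, Kcnk6 in microglia and Kcnj8 in mural cells in CPM per animal (points), with the group mean and SD (bars). In each panel 1 or more old groups lie wholly above old WT, while none of these differences passed the threshold in the edgeR fit with all cells of the class.

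Of the 40 listed genes of potassium transport and channel partners, 39 were in the table. By edgeR, 5 of their 115 pairs were called for P301L against WT, all lower, beside 1.16% of all pairs. Of these, 4 were among the 16 partner genes tested in microglia, where 5.39% of all genes were called lower. For old rTg4510 against P301L 5 of 115 were called, all higher, beside 1.3% of all pairs. Of these, 3 were among the 16 tested in microglia, where 4.29% of all genes were called higher. For rTta against WT 2 of 145 were called, both lower, beside 0.695% of all pairs. Both were among the 16 tested in microglia, where 1.62% of all genes were called lower. In oligodendrocytes, Fxyd1, a regulator of the sodium pump, was higher in old than in young rTg4510 mice (log2 2.27 ± 0.51, edgeR adjusted p 0.0112). In that comparison 132 of 5668 genes were called in either direction. Fxyd1 was also higher in old rTg4510 than in rTta mice (log2 2.61 ± 0.61, adjusted p 0.0278), where 63 of 5668 genes were called. No partner gene was called in oligodendrocytes for old rTg4510 against old WT. Lgi3, a secreted partner of Kv1 complexes, was lower in oligodendrocytes of old than of young WT mice (log2 -0.91 ± 0.19, edgeR adjusted p 0.00306). There 222 of 5668 genes were called in either direction.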

How the data were processed

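The deposited file is a Drop-seq table of counts (whole numbers) per gene and cell barcode, made by the authors. Demultiplexing used bcl2fastq 2.18.0.12 and alignment STAR 2.2 against mm10, per the submitters' processing notes; the counting of molecular identifiers is not given in the sources used here. Every column belonged to 1 animal. Barcodes with at least 300 counts were clustered with scanpy 1.11.5 (2000 variable genes, 40 components, 15 neighbours, Leiden resolution 1, potassium channel genes left out) and named from at least 3 markers; 740 cells (2.7%) stayed unnamed. No doublet caller was run; leaving out cells of mixed markers was an alternative. Counts were summed per animal with at least 20 cells of a class and tested with edgeR 4.0.16 (TMM, filterByExpr, robust quasi-likelihood F test, R 4.3.3). Each class had a single fit, which took in all groups and the genes counted in every animal. A comparison needed 2 animals per group. DESeq2 1.42.0, RLE scaling, no filter, fewer groups, a term for ranges of animal numbers, other cells and each animal left out were alternatives. The fit was tested on simulated data.

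The genes and lists were chosen with earlier results of these data known. Named genes were those called in a comparison, up to 4 per class at least 2-fold above the next class and at 30 CPM, the member of each family with most counts, and the lowest p of a class without a call; any other named gene was chosen after its values were seen. Some genes that the rule names are not reported here; counts over all genes include them. Positions come from GENCODE annotation and promoters from RefSeq, which held 49 of the 67 genes.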

Additional observations from a re-analysis of the deposited data

Results flagged for a closer look

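Each group of 4 or 5 animals was searched for a value far from the others, over 95 groups of a gene in a class, and 4 stood apart, where chance alone flags about 1 in 20 groups. Kcne1l in astrocytes was at 0.0 CPM (0 counts) in old WT 2, while the other old WT animals lay between 21.1 and 28.8. Kcnc2 in interneurons stood at 298 CPM in old WT 3 (28 counts), while the other old WT animals lay between 141 and 146. Kcnj8 in mural cells stood at 1023 CPM in young WT 1, from 20 counts, while the others lay between 277 and 336. Kcnc1 in microglia stood at 75.9 CPM in old rTg4510 3 (14 counts), while the others lay between 16.1 and 22.9. That animal is one without which Kcnc1 no longer passed for old rTg4510 against P301L (edgeR adjusted p 0.149).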

How the results depend on the processing

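Counts below are pairs of a potassium channel gene and a class called with edgeR unless another tool is named. No share of all pairs was taken for the alternatives, so a count that rises is no result about potassium channel genes as a set. Over all comparisons, 132 of the settings run left the counts within 1.5 times, and 42 moved them further. For comparisons with 0 or 1 calls, within 1.5 times means the same count, which need not come from the same gene. A count of calls has no sign, so it cannot show a change of direction. For the single genes followed across the alternatives, the log2 changes kept their sign throughout. Old rTg4510 against old WT (0) gave 2 with DESeq2 and with a term for ranges of animal numbers, Kcnj10 in astrocytes and Kcnt1 in excitatory neurons both times, and 1 without the low-count filter, with only the groups compared, without cells of mixed markers and with the 16 WT and rTg4510 animals alone. Young rTg4510 against young WT (0) gave 1 with subclasses of excitatory neurons. Old against young WT (0) gave 1 with DESeq2 and 0 to 2 with an animal left out (2 without old WT 3). Old against young rTg4510 (0) gave 1 with the range term, though no range holds both ages and this value depends on how the term is coded, and 0 to 1 with an animal left out. P301L against WT (1) gave 2 without the filter and with at least 500 counts per barcode, and 0 to 3 with an animal left out. It gave 0 with only the groups compared, where Kcnc1 in microglia did not pass the filter. For rTta against WT (1), DESeq2 gave 0, at least 500 counts 3, no low-count excitatory clusters 2, subclasses 2, and an animal left out 0 to 1. Old rTg4510 against rTta (2) gave 6 with only the groups compared and 0 to 3 with an animal left out. Old rTg4510 against P301L (1) gave 3 without the filter, 0 with DESeq2, RLE scaling or no mixed cells, and 0 to 3 with an animal left out. P301L against rTta (0) and the change of the rTg4510 difference with age (0) gave 0 to 1 with an animal left out. Without cells of mixed markers, 0 of the genes were highest in fibroblasts. The cause was not tested. The settings without the low-count excitatory clusters, with 16 animals, and with single clusters of astrocytes or microglia were chosen after seeing the data.

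No paired analysis was possible because the replicate numbers were given in order within each group and pair no animals. The range term groups animals by their numbers in the labels, which do not say what a range stands for, and it could not be fitted for P301L and rTta, whose ranges hold no other group. In microglia, the P301L animals held 1 count of Kcnc1 and the rTta animals 10 of Kcnj10, so that small differences were not detectable at this depth.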

Other observations

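Some clusters stayed unnamed, since their markers were mixed or fewer than 3, and their potassium channel genes entered no test. These values are sums over all animals and were picked after they were seen. A cluster of 254 cells led by Nhlh2, Ndnf and Reln held Kcnk2 at 225 CPM (78 counts), against 125 in the highest named class, and Kcnb2, the Kv2.2 subunit, at 115 CPM (40 counts), against 24.2. The same cluster held Kcnh7, an erg-type channel, at 43.2 CPM, against 13.5 in the highest named class. A cluster of 112 cells led by Fam183b, Rarres2 and Enkur, with 2 of 2 listed ependymal markers, held Kcnmb1 at 104 CPM (40 counts), against 77.7 in mural cells, and Kcnj10 at 324 CPM. Clusters of 92 and 76 cells that carried oligodendrocyte genes together with endothelial or microglial ones held Kcna1 at 518 and 445 CPM, against 577 in oligodendrocytes.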
